A study of Mus musculus with 10 samples.

Results

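The genes described are the mouse histone cluster genes, taken as every gene whose symbol starts with Hist1h, Hist2h, Hist3h or Hist4h in the deposited gene tables. They number 49 of 17919 genes. By the type of histone they encode, 5 are H1, 10 are H2A, 13 are H2B, 10 are H3 and 11 are H4. By cluster, 35 belong to Hist1, 10 to Hist2, 3 to Hist3 and 1 to Hist4. One of the H2B members, Hist3h2bb-ps, is named as a pseudogene.

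The cells were neural stem cell cultures made from the ventral midbrain of ICR mice at embryonic day 10. Each culture received either a lentivirus that expresses Lin28a, an RNA-binding protein of early embryonic cells, or a mock control lentivirus. Cultures were passaged every 4 days and taken at passage 1 (P1) or passage 3 (P3). RNA-seq was made from the control and the Lin28a culture at P1 and at P3, and polysome-seq, which sequences RNA from a sucrose gradient of ribosomes, from both cultures at P3. All groups thus share the transduction with a lentivirus, and the labels do not name the promoter that drives Lin28a. Every group was 1 library. No difference below has a replicate check, and none was tested. In bulk RNA, fewer cells of a type and less RNA per cell cannot be told apart.

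Core histones H2A, H2B, H3 and H4 form the protein spool of the nucleosome, and the linker histone H1 binds where DNA enters and leaves it. The cluster genes are the replication-dependent copies: they are short, have no introns in most cases, and are transcribed mainly in S phase, when new DNA has to be packaged. Their mRNAs end in a conserved stem-loop bound by SLBP in place of a poly(A) tail, although a few cluster genes also give polyadenylated transcripts. The labels call both the RNA-seq and the polysome-seq libraries poly(A)-selected, while the library kit they name is one for total RNA. Which part of the gradient entered the polysome libraries is not given in the sources used here. RNA-seq and polysome levels of a histone gene may therefore differ in kind, and the part of library preparation in the differences below was not tested.

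To show what the control regions of these genes look like, the 150 bases before the transcription start are printed for the member with the highest polysome level of each type, and for Hist3h2ba, the member with the highest RNA-seq level. They lie just upstream of the annotated first base of the gene. Sequences are from RefSeq, build GRCm38.p6, read 5′ to 3′ on the strand of the gene. Capitals mark CCAAT (or ATTGG, the same on the other strand), TATAAA (or TTTATA) and the octamer ATTTGCAT.
Hist1h1c (now H1f2, plus strand, chr13:23738657-23738806): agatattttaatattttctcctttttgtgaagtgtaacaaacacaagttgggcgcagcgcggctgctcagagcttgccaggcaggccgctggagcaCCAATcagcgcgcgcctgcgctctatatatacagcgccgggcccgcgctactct
Hist2h2aa1 (now H2ac18, plus strand, chr3:96245347-96245496): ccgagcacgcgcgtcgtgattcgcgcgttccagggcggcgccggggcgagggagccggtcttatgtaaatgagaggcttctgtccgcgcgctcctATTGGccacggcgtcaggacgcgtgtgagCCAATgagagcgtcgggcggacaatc
Hist2h2bb (now H2bc18, plus strand, chr3:96269550-96269699): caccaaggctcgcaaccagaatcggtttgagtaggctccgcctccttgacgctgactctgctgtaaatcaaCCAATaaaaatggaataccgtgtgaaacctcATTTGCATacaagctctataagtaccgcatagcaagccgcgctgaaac
Hist1h3i (now H3c11, minus strand, chr13:21783398-21783547): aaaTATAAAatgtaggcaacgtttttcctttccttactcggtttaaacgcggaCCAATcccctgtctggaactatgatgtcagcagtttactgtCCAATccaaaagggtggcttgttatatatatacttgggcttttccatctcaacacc
Hist1h4d (now H4c4, plus strand, chr13:23581418-23581567): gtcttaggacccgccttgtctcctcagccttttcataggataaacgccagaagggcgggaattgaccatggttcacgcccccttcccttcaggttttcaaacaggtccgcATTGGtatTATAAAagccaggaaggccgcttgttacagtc
Hist3h2ba (now H2bu2, plus strand, chr11:58948761-58948910): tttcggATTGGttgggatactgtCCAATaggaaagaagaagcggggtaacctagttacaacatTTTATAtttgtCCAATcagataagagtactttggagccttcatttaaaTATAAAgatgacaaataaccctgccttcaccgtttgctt
Promoters in RefSeq matched 43 of the 49 members, and the 250 bases before the start were searched on both strands. CCAAT was found in 33 of 43 (76.7%), against 33.8% of all 32851 promoters in the table. It was in 5 of 5 H1, 10 of 10 H2A, 10 of 10 H2B and 6 of 8 H3 promoters but in 2 of 10 H4 promoters, of which Hist1h4d is 1. TATAAA was found in 23 of 43 (53.5%), against 12.4% of all promoters. The octamer was found in 9 of 43 (20.9%), 5 of them H2A and 4 H2B, against 1.60% of all promoters. In the printed windows the octamer of Hist2h2bb starts 48 bases before the gene, and the TATAAA of Hist1h4d starts 32 bases before it. Divergent neighbours share upstream bases, so the promoters are not independent. A match describes these letters only and shows no binding.

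Most of the cluster genes were close to undetected in RNA-seq and among the most abundant RNAs in polysome-seq. In RNA-seq, given as FPKM (fragments scaled to gene length and to the fragments of the library), the median member was at 0.266 in P1 control, 0.353 in P1 Lin28a, 0.320 in P3 control and 0.377 in P3 Lin28a. In polysome-seq, read as RPKM (the same scaling of reads), the median member was at 226 in control and 327 in Lin28a. This placed the median member at percentile 22.2 to 24.3 of all genes in the 4 RNA-seq libraries, and at percentile 99.4 and 99.6 in the polysome libraries. Of the 49 members, 24 were among the 100 highest genes of the control polysome library and 35 among those of the Lin28a library.

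In RNA-seq 30 members stayed under 1 FPKM in all 4 libraries, and 9 were at 1 FPKM or more in all 4. The lowest listed value of each RNA-seq library was a floor of 4.8e-07, shared by 1061 to 1418 genes. At that floor were 15 members in P1 control, 6 in P1 Lin28a, 18 in P3 control and 15 in P3 Lin28a, and no member was there in all 4 libraries. The polysome libraries had 0 members at their floor, and 42 were at 100 RPKM or more in both. The members made up 5.96% of the sum of all values listed in the control polysome library and 7.94% in the Lin28a library, against 0.0297% to 0.0355% in the RNA-seq libraries.

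**Figure D1:**
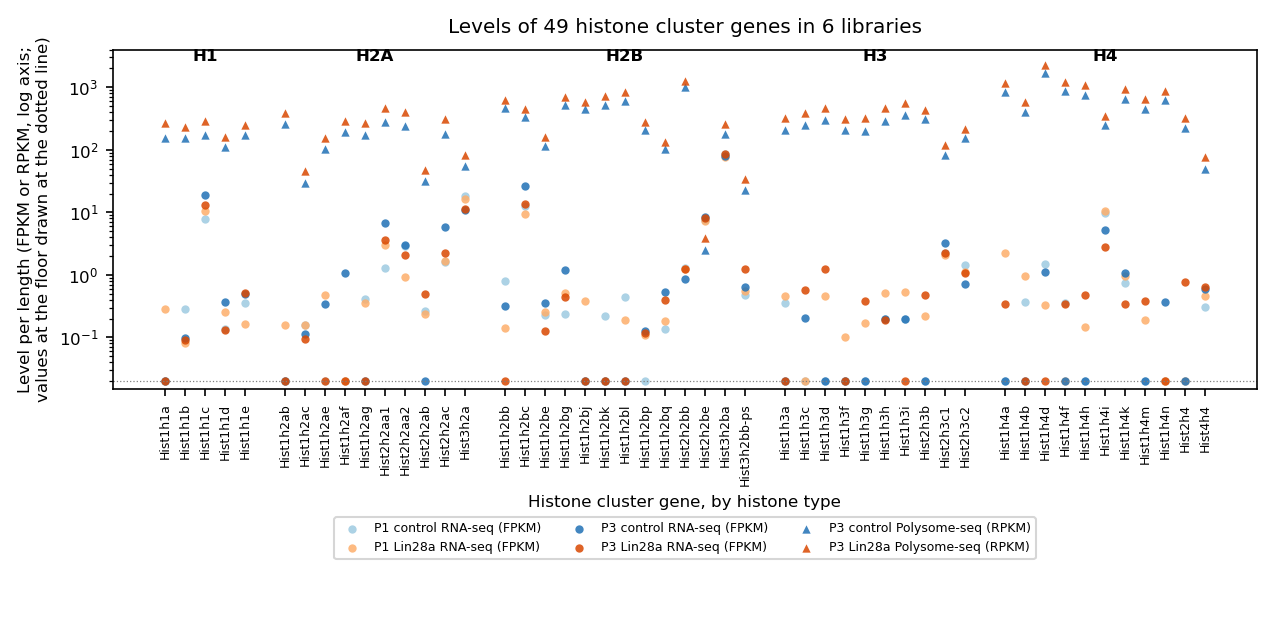
Level of each of the 49 members, grouped by histone type, in the 4 RNA-seq libraries (circles, FPKM) and the 2 polysome-seq libraries (triangles, RPKM) on a log axis. Values at the floor or under 0.02 are drawn on the dotted line. Except for Hist2h2be, the triangles lie above the circles of every member.

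Some facts of the whole set of libraries bear on these values. Lin28a was at 0.128 and 0.0620 FPKM in the P1 and P3 control RNA-seq libraries, at 478 and 104 FPKM in the Lin28a libraries, and at 17.9 RPKM in the Lin28a polysome library, where the control was at its floor. All 13 neural stem cell markers were at 1 or more in each of the 6 libraries, and none of 6 microglia markers was. Summed astrocyte markers (7 genes) were at 178 FPKM in P1 control, 132 in P1 Lin28a, 3913 in P3 control and 1660 in P3 Lin28a. Summed oligodendrocyte markers (11 genes) were at 186, 112, 2101 and 1290 FPKM in the same order, and summed neuron markers (12 genes) at 1110, 938, 284 and 485 FPKM. Summed ventral midbrain markers (7 genes) were at 210, 206, 46.8 and 80.2 FPKM. Depth of the RNA-seq libraries is unknown. Steps between low values put the depth of the polysome libraries at about 42.5 M reads for control and 44.2 M reads for Lin28a (M, mega). That estimate rests on 69 of 131 and 71 of 135 low, short genes whose values were whole numbers of reads within 0.05 reads, so read numbers below are approximate. Copies of 1 histone type are near-identical in their coding sequence, and reads may be shared between them. The value of a single copy is therefore uncertain, and members of a type are not independent measurements.

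By type, H4 genes stood highest in polysome-seq. Their median was 622 RPKM in control and 866 in Lin28a, against 335 and 451 for H2B, 229 and 355 for H3, 178 and 277 for H2A, and 156 and 249 for H1. The order of the types was the same in both libraries. In RNA-seq no type had a median of 1 FPKM or more in any library, and the highest type medians were 0.695 FPKM for H2A and 0.531 for H2B, both in P3 control. Within each type the polysome levels ranged widely, from 49.6 RPKM (Hist4h4) to 1681 RPKM (Hist1h4d) among H4 genes of the control library and from 2.45 (Hist2h2be) to 999 RPKM (Hist2h2bb) among H2B genes.

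The difference between the assays was computed per culture at P3 as log2(RPKM + 1) minus log2(FPKM + 1). The added 1, a pseudocount, keeps low values defined and shrinks their ratios. A gene entered a comparison when it reached 1 in at least 1 of its libraries, and a gene was counted when it lay past a 2-fold difference on this scale. In the control culture 48 of 49 members were higher in polysome-seq past 2-fold, against 5% of 12790 genes, and 1 was lower, against 28.8%. In the Lin28a culture 48 were higher, against 4.31% of 12844 genes, and 0 lower, against 23.8%. The median log2 difference of the members was 7.54 in control and 7.97 in Lin28a. All genes had a median of -0.49 and -0.41, and relative to those medians the members' median was 8.03 and 8.38. Since 18 and 15 members were at the RNA-seq floor, these sizes depend on the pseudocount. Among the 14 members at 1 or more in both libraries of a culture the median was 4.95 in control and 5.89 in Lin28a. Cell type markers differed between the assays too. In control, oligodendrocyte markers had a median of -4.79 (10 of 10 lower) and astrocyte markers -3.60 (6 of 6 lower). Of all genes, 9095 of 12790 were lower by any amount there. Neural stem cell markers had a median of -1.30, neuron markers -0.04 and ventral midbrain markers 0.20. In Lin28a the medians were -4.58, -3.38, -1.45, -0.65 and 0.51 in that order. The part of cell make-up in the assay differences was not tested.

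Hist1h4f, Hist1h4a and Hist1h4d, all H4 genes, had the largest differences between assays in control, 9.77, 9.73 and 9.64 on the log2 scale. At the other end was Hist2h2be, an H2B gene with a polyadenylated form. It was at 7.59 FPKM in P1 control, 7.30 in P1 Lin28a, 8.37 in P3 control and 8.06 in P3 Lin28a, but at 2.45 RPKM in control polysomes and 3.89 in Lin28a polysomes. It was the 1 member with a lower polysome than RNA-seq value, with a log2 difference of -1.44 in control and -0.89 in Lin28a. Relative to all genes the first of these was -0.95, within 2-fold. Its RefSeq span is 2667 bases, against 383 to 903 for the other members with a single RefSeq transcript. The length behind the deposited values is not given in the sources used here, and a part of length in this difference was not tested.

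A list of 5 members known to give polyadenylated transcripts held Hist1h1c, Hist1h2bc, Hist2h2be, Hist3h2a and Hist4h4. It was drawn up with earlier results of these data known and may not be complete, so the values below depend on its choice. In RNA-seq 4 of the 5 were at 1 FPKM or more in each library, the exception being Hist4h4, at 0.301 FPKM in P1 control, 0.453 in P1 Lin28a, 0.595 in P3 control and 0.640 in P3 Lin28a. Their median log2 difference between assays was 3.14 in control and 4.36 in Lin28a, against 7.54 and 7.97 over all 49 members. The highest RNA-seq member was outside this list. Hist3h2ba, an H2B gene of the Hist3 cluster, was at 86.5 FPKM in P1 control, 77.3 in P1 Lin28a, 78.8 in P3 control and 85.2 in P3 Lin28a. It alone held 44.1% to 54.5% of the summed FPKM of all 49 members in the 4 libraries. In polysome-seq it was an ordinary member, at 179 RPKM in control and 261 in Lin28a, or 1.12% and 1.14% of the members' sum.

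Between the cultures at P3, every cluster gene was more abundant in the Lin28a polysome library than in the control polysome library. All 49 of 49 members were higher by any amount, against 62.8% of 12289 genes, and 0 were past 2-fold in either direction, against 0.952% higher and 0.122% lower of all genes. The ratio of Lin28a to control ran from 1.27-fold to 1.76-fold with a median of 1.45-fold. On the log2(RPKM + 1) scale the members ran from 0.34 to 0.81 with a median of 0.53, and the median of all genes was 0.06. At or above the lowest member lay 11.6% of all genes.

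Most of these ratios rest on many reads. Among the 44 members with a single RefSeq transcript, the control library gave approximately 278 to 28717 reads per member, with a median of 5566. Counting error of the log2 ratio, with reads taken as pairs, was 0.016 to 0.155, and it was at or under 0.1 for 41 of the 44. These errors cover counting only, and the spread between cultures is unknown. Of 276 other genes at 100 RPKM or more, 156 were higher in Lin28a and 24 (8.70%) were at or above the lowest member, with a median log2 ratio of 0.03. Between the same polysome libraries summed neural stem cell markers were at 2167 RPKM in control and 2121 in Lin28a, astrocyte markers at 152 and 102, and oligodendrocyte markers at 293 and 201. Higher in Lin28a were summed ventral midbrain markers, at 51.7 and 101 RPKM (7 of 7 genes higher, 4 past 2-fold, median log2 ratio 1.15), and neuron markers, at 252 and 292 RPKM (9 of 10 that entered higher, 3 past 2-fold, median 0.60). The part of these cell types in the histone ratios was not tested.

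**Figure D2:**
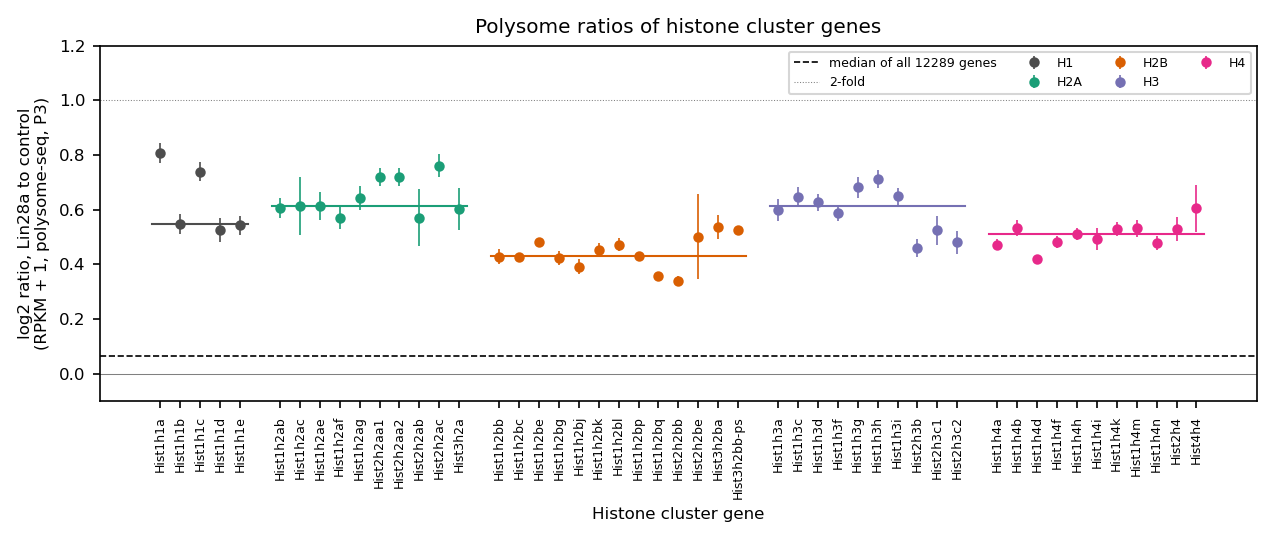
Log2 ratio of Lin28a to control in polysome-seq at P3 for each member, coloured by histone type, with the type median as a bar. Error lines are 1 SE from counting alone for the 44 members with 1 RefSeq transcript, the dashed line is the median of all genes (0.06) and the dotted line is 2-fold. All members lie between 0.34 and 0.81. On this log2(RPKM + 1) scale the H2A points all lie above the H2B points, which does not hold for Hist2h2be without the added 1.

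Among the linker histones the highest polysome level was that of Hist1h1c, a somatic H1 subtype, at 174 RPKM in control and 291 in Lin28a, a log2 ratio of 0.74. Hist1h1e, another somatic H1, was at 170 and 249 RPKM (0.54). Hist1h1a was at 153 and 269 RPKM, a log2 ratio of 0.81 with a counting error of 0.036, the largest of all members. In RNA-seq Hist1h1a was at the floor in 3 libraries and at 0.284 FPKM in P1 Lin28a, so its polysome ratio has no counterpart there. Hist1h1e was at 0.361 FPKM in P1 control, 0.163 in P1 Lin28a, 0.494 in P3 control and 0.507 in P3 Lin28a. Hist1h1c made up 90.9% to 95.2% of the summed H1 FPKM in the RNA-seq libraries but 22.7% and 24.3% of the summed H1 RPKM.

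The H2A genes had a median log2 ratio of 0.61 and ran from 0.57 to 0.76. Hist2h2aa1 was at 278 RPKM in control polysomes and 459 in Lin28a polysomes, and its near copy Hist2h2aa2 at 244 and 403 RPKM. Both had a log2 ratio of 0.72. Hist1h2ab was at 255 and 388 RPKM (0.61), and in RNA-seq at the floor except for 0.160 FPKM in P1 Lin28a. Hist2h2ac, at 182 and 310 RPKM, had the largest H2A ratio, 0.76 with a counting error of 0.042. The lowest was that of Hist1h2af, 0.57, with 192 RPKM in control and 285 in Lin28a. Hist3h2a was low in polysomes, at 55.0 and 84.0 RPKM, although it was the highest H2A gene in RNA-seq.

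H2B genes, whose protein pairs with H2A in a dimer, had smaller ratios. Their median log2 ratio was 0.43 and they ran from 0.34 to 0.54. On this log2(RPKM + 1) scale all 10 H2A genes lay above all 13 H2B genes. Without the added 1 the types overlapped. Hist2h2be, a low H2B gene at 2.45 and 3.89 RPKM, then had a ratio of 1.59-fold, above Hist1h2af at 1.49-fold and below Hist2h2ac at 1.70-fold. With the added 1, the gap between the lowest H2A gene (Hist1h2af, 0.57) and the highest H2B gene (Hist3h2ba, 0.54) was no larger than their counting errors of 0.041 and 0.044. Hist2h2bb was the most abundant H2B gene, at 999 RPKM in control and 1264 in Lin28a, and had the smallest ratio of all members, 0.34 with a counting error of 0.019. Hist1h2bl was at 609 and 845 RPKM (0.47), Hist1h2bk at 524 and 718 RPKM (0.45) and Hist1h2bc at 335 and 451 RPKM (0.43). In RNA-seq Hist2h2bb was at 1.27 FPKM in P1 control, 1.23 in P1 Lin28a, 0.851 in P3 control and 1.23 in P3 Lin28a. Hist1h2bl (0.441 and 0.192 FPKM) and Hist1h2bk (0.221 FPKM and the floor) were low at P1 and at the floor in both P3 libraries. The summed RPKM of each type gave the same order, with a log2 ratio of 0.67 for H2A and 0.42 for H2B.

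Since no H2A ratio overlapped an H2B ratio on the log2(RPKM + 1) scale, neighbouring genes of these types had to differ in the same way there. The pairs are given for their position alone. Pairs with starts at most 1000 bases apart were sought among the 43 members with a RefSeq promoter. In 2 pairs found there an H2A gene and an H2B gene start 180 and 249 bases apart and are transcribed away from each other. Pairs that include a member without a promoter, such as Hist1h2bc or Hist2h2be, could not be found. Hist1h2ae went from 102 RPKM in control to 157 in Lin28a (0.61), while its neighbour Hist1h2bg was at 516 and 693 RPKM (0.42). Hist1h2ag was at 173 and 270 RPKM (0.64), while its neighbour Hist1h2bj was at 444 and 584 RPKM (0.39). In both pairs the H2B gene was the more abundant.

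H3 genes had a median log2 ratio of 0.61, and ran from 0.46 to 0.71. Hist1h3i, the most abundant, went from 360 RPKM in control to 565 in Lin28a (0.65). Hist1h3d was at 302 and 467 RPKM (0.63), and Hist1h3h, with the largest H3 ratio, at 289 and 474 RPKM (0.71). In RNA-seq Hist1h3i was at 0.198 FPKM in P1 control, 0.523 in P1 Lin28a, 0.198 in P3 control and the floor in P3 Lin28a, and Hist1h3h at 0.199, 0.519, 0.199 and 0.187 FPKM, too low to enter. The 3 H3 genes of the Hist2 cluster were the 3 lowest of the type: Hist2h3b at 0.46, Hist2h3c2 at 0.48 and Hist2h3c1 at 0.52. They were at 313, 152 and 83.7 RPKM in control and 432, 213 and 121 in Lin28a.

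H4 genes, which encode a single protein from many copies, had a median log2 ratio of 0.51, from 0.42 to 0.60. Hist1h4d was the third most abundant gene of both polysome libraries, at 1681 RPKM in control and 2247 in Lin28a, and had the smallest H4 ratio, 0.42. Hist1h4f was at 874 and 1220 RPKM (0.48) and Hist1h4a at 846 and 1174 RPKM (0.47). In RNA-seq Hist1h4d was at 1.50 FPKM in P1 control, 0.325 in P1 Lin28a, 1.11 in P3 control and the floor in P3 Lin28a. Hist1h4f was at 0.359 FPKM in P1 control, 0.336 in P3 Lin28a and the floor in both other libraries. The largest H4 ratio was that of Hist4h4, 0.60, at 49.6 and 75.9 RPKM, the least abundant H4 gene. Per cluster the median log2 ratio was 0.53 for the 35 Hist1 genes, 0.53 for the 10 Hist2 genes and 0.54 for the 3 Hist3 genes.

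Related genes were compared by lists. The replication-independent histone variants, most of which are expressed outside S phase from polyadenylated mRNAs, were also higher in Lin28a polysomes in 10 of 11 cases. The share of all genes higher there was 62.8%. The median log2 ratio of the variants was 0.48, and 0 were past 2-fold. The linker variant H1fx went from 28.3 RPKM in control to 44.4 in Lin28a (0.63). H2afz was at 40.7 and 63.4 RPKM (0.63), and H3f3a, a gene for H3.3, at 65.3 and 101 RPKM (0.63). H2afj (-0.09) was lower, and Cenpa, the centromeric H3 variant, was at 75.4 and 75.5 RPKM (0.00). In RNA-seq at P3 the median of this list was 0.21, and 0 were past 2-fold. Of its 11 genes 9 were higher in Lin28a there, against 6172 of 12716 genes.

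By their medians, genes that make, process or carry histones differed less between the polysome libraries. The counts below stand beside 62.8% of all genes higher in Lin28a by any amount. Of 17 genes for histone pre-mRNA processing and histone gene transcription, 11 were higher and 6 lower with a median log2 ratio of 0.05. Among them Slbp, the stem-loop binding protein, went from 18.1 RPKM in control to 22.3 in Lin28a (0.29), and Snrpb, a core protein of small nuclear ribonucleoproteins, at 45.5 and 64.8 RPKM (0.50). Of 19 histone chaperones 15 were higher, with a median of 0.12. Their largest ratios, of Asf1a (0.47) and Daxx (0.44), lay within the range of the cluster genes. Nasp, which binds newly made H3 and H4 or linker histones, was at 28.7 and 35.6 RPKM (0.30). The 22 S-phase genes had a median of 0.15 with 19 higher, and their largest ratios, of E2f1 (0.51) and Gins1 (0.45), also lay within that range. In each of these lists 0 genes were past 2-fold.

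Among RNAs that are known to lack a poly(A) tail, 3 were in the tables, and they did not move together. Rmrp, the RNA of RNase MRP, was at 8850 RPKM in control polysome-seq and 14748 in Lin28a (0.74), but at no more than 1.29 FPKM in any RNA-seq library. Rpph1, the RNA of RNase P, was at 277 and 245 RPKM (-0.18), and Terc, the telomerase RNA, at 4.14 and 3.30 RPKM (-0.26). All 3 were higher in polysome-seq than in RNA-seq past 2-fold in both cultures, as were 48 of the histone genes.

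**Figure D3:**
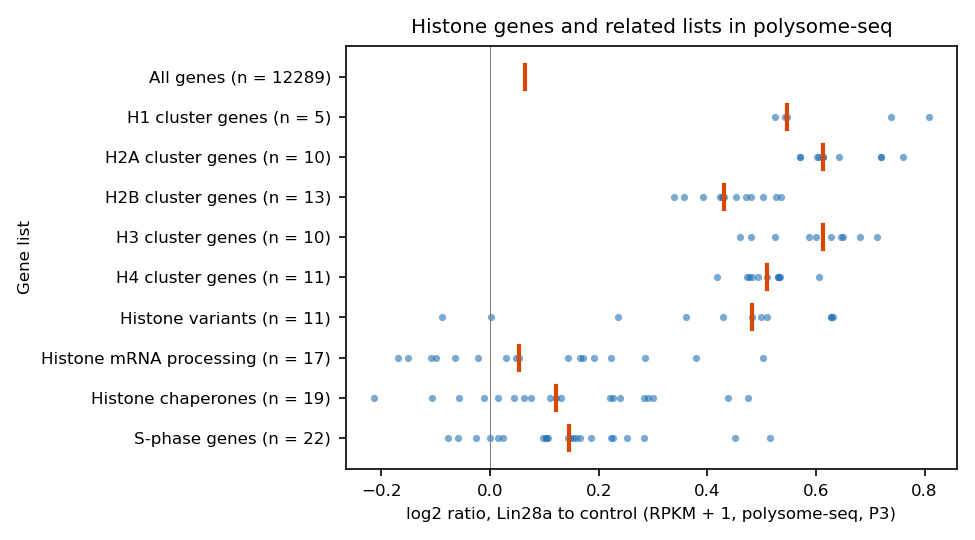
Log2 ratio of Lin28a to control in polysome-seq at P3 for the cluster genes of each type and for 4 related lists, 1 point per gene, with the median of each list as an orange bar and the median of all genes on top. The histone types have medians of 0.43 to 0.61 and the histone variants 0.48, while the processing, chaperone and S-phase lists have medians of 0.05 to 0.15.

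In RNA-seq few members were high enough to be compared between cultures. At P1, 14 members entered. Their median log2 ratio of Lin28a to control was -0.06, with 1 member higher past 2-fold, against 0.135% of 12564 genes, and 1 lower, against 0.0955%. The higher one was Hist1h4a, at the floor in P1 control and at 2.21 FPKM in P1 Lin28a, a difference of 1.68 on the log2(FPKM + 1) scale. The lower one was Hist2h2aa2, at 2.90 and 0.939 FPKM, a log2 ratio of -1.01. Its near copy Hist2h2aa1 went the other way, at 1.27 and 3.00 FPKM (0.82), and reads shared between the copies may be divided differently in each library. Restricted to the 11 members at 1 FPKM or more in both libraries, none was past 2-fold.

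At P3, 18 members entered the comparison of the cultures in RNA-seq, and 12 were lower in Lin28a, against 51.5% of all genes. The median log2 ratio was -0.44, against -0.01 over all genes, with 1 member higher past 2-fold, against 1.31% of 12716 genes, and 3 lower, against 1.34%. Hist1h3d was higher, at the floor in P3 control and at 1.22 FPKM in P3 Lin28a. Hist2h2ac was lower, at 5.92 FPKM in P3 control and 2.21 in P3 Lin28a, a log2 ratio of -1.11. The other lower members were Hist1h4d and Hist1h2af, at 1.11 and 1.05 FPKM in P3 control and at the floor in P3 Lin28a. The calls thus rest on levels near 1 FPKM except for Hist2h2ac. With a pseudocount of 5, 0 members were past 2-fold in this comparison and in each other RNA-seq comparison between cultures or passages. A member at 1 FPKM or more in only 1 P3 library entered through the culture where it was higher. The filter thus set its sign. At 1 FPKM or more in both P3 libraries were 10 members, 8 of them lower in Lin28a, with a median of -0.44. Without the filter 23 of the 49 members were lower and 17 higher, with a median of 0.

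The members with higher RNA-seq levels included Hist1h2bc, at 12.5 FPKM in P1 control, 9.29 in P1 Lin28a, 26.6 in P3 control and 13.5 in P3 Lin28a. Its P3 control library was the high one, with a log2 ratio of Lin28a to control of -0.93 at P3. Hist1h1c was at 7.81 FPKM in P1 control, 10.4 in P1 Lin28a, 18.9 in P3 control and 13.3 in P3 Lin28a (-0.48 at P3), with both P3 libraries above both P1 libraries. Hist3h2a was at 18.1, 16.6, 10.8 and 11.4 FPKM in the same order, lower at P3 in both cultures. Hist1h4i, an H4 gene, was at 9.73, 10.4, 5.29 and 2.76 FPKM and was also lower at P3. Hist2h3c1 was at 2.23, 2.08, 3.28 and 2.25 FPKM, and Hist2h3c2 at 1.45, 1.13, 0.711 and 1.09 FPKM, without a shared direction. Hist1h4k stayed low, at 0.730, 0.953, 1.09 and 0.340 FPKM.

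**Figure D4:**
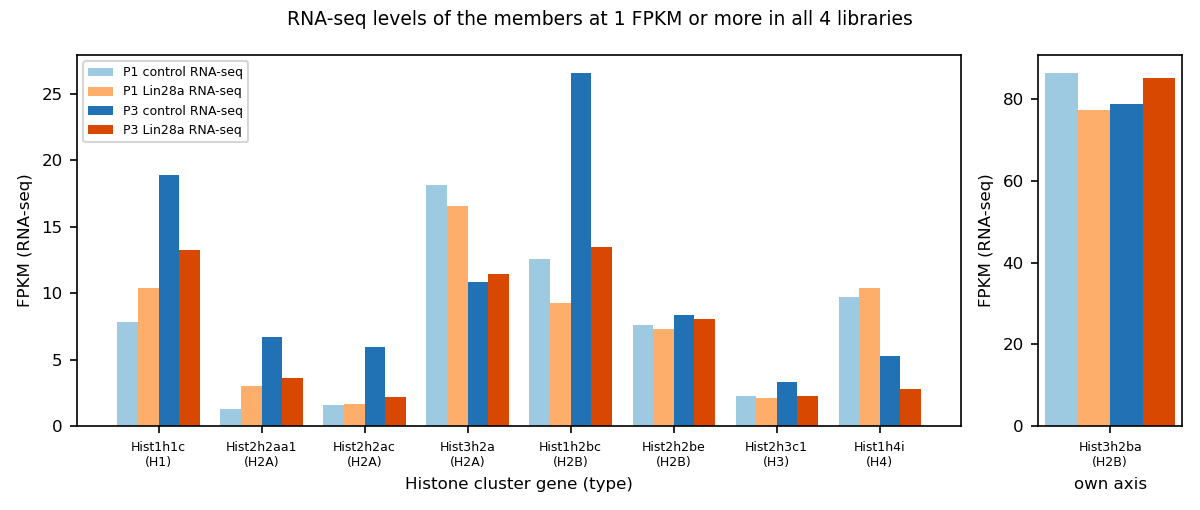
RNA-seq level in FPKM of the 9 members at 1 FPKM or more in all 4 libraries, with bars for P1 control, P1 Lin28a, P3 control and P3 Lin28a. Hist3h2ba has its own axis, and both axes start at 0. Hist1h1c, Hist2h2aa1, Hist2h2ac, Hist1h2bc, Hist2h3c1 and, by a small margin, Hist2h2be are highest in P3 control. Hist3h2a and Hist1h4i are lower at P3 than at P1.

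From P1 to P3 the control culture had 5 members higher past 2-fold of 16 that entered, against 11.5% of 13011 genes, and 0 lower, against 8.14%. The median log2 ratio was 0.20. Hist2h2aa1 went from 1.27 to 6.72 FPKM (1.77), Hist2h2ac from 1.62 to 5.92 FPKM (1.40) and Hist1h1c from 7.81 to 18.9 FPKM (1.18). The other higher members were Hist1h2bc (1.03) and Hist1h2af (1.04, from the floor). In the Lin28a culture 15 members entered with a median of 0.14, 0 higher past 2-fold, against 8.38% of 12850 genes, and 2 lower, against 4.8%. Those were the H4 genes Hist1h4i, from 10.4 to 2.76 FPKM (-1.60), and Hist1h4a, from 2.21 to 0.340 FPKM (-1.26). Over the same passages the S-phase genes were lower, 22 of 22 in both cultures, with 13 of them past 2-fold in control and 16 in Lin28a. Their median log2 ratios were -1.18 and -1.29. Beside them, the astrocyte and oligodendrocyte sums given above were higher at P3 than at P1 in both cultures, with the highest sums in P3 control. The part of either in the histone values was not tested.

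The passage change differed between the cultures, as Lin28a minus control, by a median of -0.33 over the 19 members that reached 1 FPKM in at least 1 of the 4 libraries. Of these, 0 were higher past 2-fold, against 1.55% of 13138 genes, and 4 were lower, against 0.898%. Hist2h2aa1 had the largest difference, -1.56, followed by Hist1h4a at -1.26, Hist2h2ac at -1.12 and Hist1h2af at -1.04. For Hist2h2aa1 the 4 levels were 1.27 FPKM in P1 control, 3.00 in P1 Lin28a, 6.72 in P3 control and 3.63 in P3 Lin28a. This comparison, the P1 to P3 control comparison and the P3 comparison of cultures share the P3 control library, so a high value there enters all of them. Restricted to the 9 members at 1 FPKM or more in all 4 libraries, Hist2h2aa1 and Hist2h2ac were past 2-fold and the median was -0.53.

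The ratios of the cultures at P3 are set side by side for the assays. Of the 18 members that entered in RNA-seq, 12 were lower in Lin28a RNA-seq and higher in Lin28a polysome-seq, and 6 were higher in both. Since every member was higher in Lin28a polysome-seq, this split only repeats the RNA-seq signs. Some of those signs were set by the entry filter, as described for the P3 comparison. Hist2h2ac had the widest gap, with log2 ratios of -1.11 in RNA-seq and 0.76 in polysome-seq. Hist3h2ba, the member with the most RNA-seq signal, was at 0.11 in RNA-seq and 0.54 in polysome-seq, and Hist2h2be at -0.05 and 0.50. The type sums of FPKM gave log2 ratios of -0.51 for H1, -0.49 for H2A, -0.09 for H2B, 0.43 for H3 and -0.48 for H4, while the sums of RPKM gave 0.65, 0.67, 0.42, 0.61 and 0.48.

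**Figure D5:**
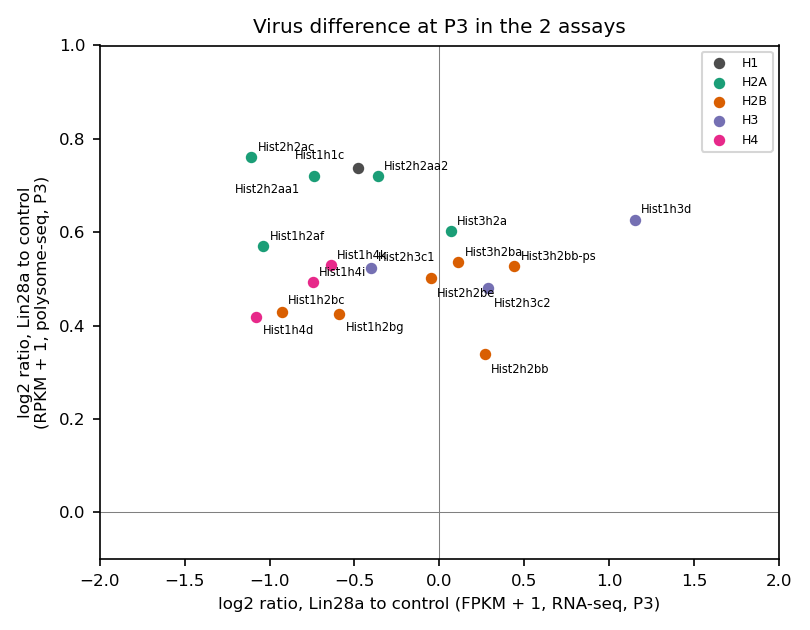
Log2 ratio of Lin28a to control at P3 in RNA-seq (x axis) and polysome-seq (y axis) for the 18 members at 1 FPKM or more in at least 1 P3 RNA-seq library, coloured by histone type. All points lie above 0 on the y axis, and 12 lie left of 0 on the x axis.

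The shift of each gene's polysome level relative to its RNA level, computed as the polysome-seq log2 ratio minus the RNA-seq log2 ratio at P3, had a median of 0.56 over the 49 members, against 0.07 over all genes. It was past 2-fold upwards in 11 members, against 0.895% of 13071 genes, and downwards in 0, against 0.237%. These counts depend on the pseudocount: they were 17 and 9 with a pseudocount of 0.1, and 4 upwards with one of 5. For the 9 members at the RNA-seq floor in both P3 libraries the shift is the polysome ratio again. The largest were Hist2h2ac at 1.87, Hist1h2af at 1.61 and Hist1h4d at 1.50. Both Hist1h2af and Hist1h4d were at the floor in P3 Lin28a RNA-seq. Hist1h3d was the lowest, at -0.53, and was at the floor in P3 control RNA-seq. Restricted to the 10 members at 1 or more in all 4 libraries, the median was 1.15, against 0.07 over 11424 genes so restricted. Of these 10 members, 6 were past 2-fold: Hist1h1c (1.22), Hist2h2aa1 (1.46), Hist2h2aa2 (1.08), Hist2h2ac (1.87), Hist1h2bc (1.36) and Hist1h4i (1.24). The H2B genes Hist2h2be (0.55) and Hist3h2ba (0.42), the H2A gene Hist3h2a (0.53) and the H3 gene Hist2h3c1 (0.92), also in that set, were within 2-fold. The share of all genes past 2-fold under this restriction was not computed. Since the shift subtracts the RNA-seq ratio, a high value in the P3 control RNA-seq library raises it too.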

How the data were processed

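RNA-seq (4 libraries) and polysome-seq (2) were used, and small RNA libraries (4) were not used. Bowtie 1.0.0, TopHat2 2.0.6, Cufflinks 2.1.1 and build mm9 are named, with no roles, per the submitters' processing notes. The RNA-seq values deposited by the authors are taken as FPKM, from the named tools and the values, since no header names a unit. The polysome values deposited by the authors are taken as RPKM. Of low, short genes, 69 of 131 in control and 71 of 135 in Lin28a stepped in whole reads, at a step chosen for the best fit. Such steps cannot tell RPKM from FPKM. Groups came from the sample titles. Members and lists were chosen with earlier results of these data known. Ratios were differences of log2(value + 1) for genes at 1 or more in at least 1 library of a comparison, counted past 2-fold. With 1 library a group there was no test. Named by rule were, per type, the 3 highest members in polysome-seq and the 2 highest in RNA-seq, up to 3 members past 2-fold at each end of every comparison, and 5 members with polyadenylated transcripts. Other members were named after their values were seen. Symbols matched RefSeq for 48 of 49 members. The code was tested on simulated data. Figures were drawn with matplotlib 3.10.9, and values computed in Python 3.11.15 with pandas 2.3.3, numpy 2.4.6 and scipy 1.17.1.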

Additional observations from a re-analysis of the deposited data

Results flagged for a closer look

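Of the 13 members that entered at both passages, 8 had RNA-seq differences between the cultures of opposite sign at P1 and P3, and in 2 of them these differed past 2-fold. Hist2h2aa1 had a log2 ratio of Lin28a to control of 0.82 at P1 and -0.74 at P3, a difference of -1.56. Hist2h2ac had 0.02 at P1 and -1.11 at P3, a difference of -1.12. The others were Hist1h1c (0.37 and -0.48), Hist1h4i (0.08 and -0.74), Hist2h3c2 (-0.20 and 0.29), Hist3h2ba (-0.16 and 0.11), Hist2h2bb (-0.03 and 0.27) and Hist3h2a (-0.12 and 0.07). Several of these P1 ratios were small, such as those of Hist2h2ac, Hist2h2bb and Hist1h4i. The share of all genes with opposite signs was not computed, so the count of 8 is not read as a trait of the members. With 1 library a group the difference between passages was not tested.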

How the results depend on the processing

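Another pseudocount (0.1 or 5), no filter on low values, a minimum of 5 and centring on the median of all genes were tried, and a restriction to genes at 1 or more in every library was added after the data were seen. In polysome-seq the comparison of Lin28a with control kept its counts, and its median moved by less than 1.5 times, under every alternative run, although 48 members entered at a minimum of 5. Of the other comparisons, values that moved by more than 1.5 times follow, in the order P1 cultures, P3 cultures, control passages, Lin28a passages, passage change, assays and polysome to RNA ratio. With a pseudocount of 0.1, the P1 counts were 2 higher and 2 lower, the P3 count 5 lower, the control passage median 0.33, the Lin28a passage count 3 higher, the passage change median -0.54 with 2 higher and 8 lower, the Lin28a assay count 1 lower, and the polysome to RNA ratio counts 17 higher and 9 lower. With a pseudocount of 5, the medians were -0.032, -0.19, 0.087 and -0.16 for P1, P3, control passages and passage change. The counts there and in the Lin28a passages were 0 in both directions, the control assay count was 0 lower, and the polysome to RNA ratio had 4 higher. Without the filter the medians were 0.052, 0, 0, 0 and -0.12. With a minimum of 5, the P1 counts were 0 and 0, the P3 counts 0 higher and 1 lower, the control passage median 0.58, the Lin28a passage count 1 lower, and the passage change median -0.68 with 2 lower. At 1 or more in every library, the P1 counts were 0 and 0, the P3 counts 0 higher and 1 lower, the control passage median 0.13, the Lin28a passage count 1 lower, the passage change median -0.53 with 2 lower, the control assay median 4.95 with 13 higher, the Lin28a assay count 13 higher, and the polysome to RNA ratio median 1.15 with 6 higher. Centring left 0 lower in the control assay comparison. The cause of these shifts was not tested, apart from the smaller number of genes that the filters leave. No paired analysis was possible because each group has 1 library. RNA-seq levels near 1 FPKM, at unknown depth, limit the RNA-seq counts.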
